A study of Mus musculus with 16 samples.

Results

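The expression of 10 genes of the glucocorticoid response and of steroid metabolism was examined in mouse small intestinal epithelium before and after weaning. They are the glucocorticoid receptor Nr3c1, the enzymes Hsd11b1, Hsd11b2, Hsd17b6, Cyp11a1, Cyp17a1 and Srd5a2, and the glucocorticoid-induced genes Fkbp5, Tsc22d3 and Sgk1. They were chosen by name from the 24421 genes of the count files, and all 10 were detected in some library. The libraries came from wild-type C57BL6/J mice with no treatment, 4 at postnatal day 6 (P6) and 4 at postnatal day 36 (P36), and each age had 2 female and 2 male mice. Each mouse gave a segment of jejunum and a segment of ileum, from which the epithelium was released with EDTA. This gave 16 bulk RNA-seq libraries in 4 groups of 4, in which replicates 1 and 2 were female and replicates 3 and 4 were male. The P6 mice were decapitated and the P36 mice received CO2, and EDTA was applied for longer in some P36 samples, so that age cannot be told apart from these steps. The hour of collection is not given in the sources used here.

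Glucocorticoids enter the cell and bind the receptor Nr3c1, which is held by chaperones in the cytoplasm, moves to the nucleus and switches genes such as Fkbp5 on. How much active hormone reaches the receptor depends on enzymes in the cell itself: Hsd11b1 regenerates corticosterone from its inactive form, and Hsd11b2 inactivates it. In rodents circulating corticosterone rises before weaning and hastens the maturation of the gut, and the intestinal epithelium of mice has been described as a site of local steroid synthesis that starts with Cyp11a1.

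Total counts ranged from 12159237 to 25947276 per library. Levels are given as CPM, which are counts scaled to the library total and by the trimmed mean of M-values (TMM), and levels of different genes are compared only as RPKM, the CPM divided by the exonic length in kilobases. The 7 epithelial markers summed to between 4016 and 17057 CPM in every library. The neonatal enterocyte markers summed to 16057 to 36377 CPM at P6 and 216 to 2177 CPM at P36. The jejunal markers separated the regions at both ages, but the 4 ileal markers, among them the bile acid transport genes Fabp6 and Slc10a2, summed to 161 to 447 CPM in the ileum against 354 to 593 CPM in the jejunum of P6 mice, so that their sum did not separate the P6 regions. Fabp6 and Slc10a2 themselves were higher in the P6 ileum without overlap, with regional log2 fold changes of -6.51 (SE 1.02, adjusted p = 0.000209 in edgeR) and -4.97 (SE 1.02, adjusted p = 0.00202), while Gpa33, which made up most of the P6 sum together with Fgf15, was higher in the jejunum at 1.24 (SE 0.29, adjusted p = 0.00483). The fibroblast and smooth muscle markers summed to 425 CPM in P6 ileum replicate 2, against 21.4 to 45.0 CPM in the other P6 ileum libraries. The T cell markers summed to 84.6 and 114 CPM in P36 jejunum replicates 1 and 3, against 8.87 and 10.0 CPM in replicates 2 and 4. Without P6 ileum replicate 2, 3 members passed between the P6 regions and 7 between the ages of the ileum, the same numbers as with it. In bulk samples, fewer cells of a type and less RNA per cell cannot be told apart.

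The 4 comparisons asked how the regions differed at each age and how each region changed with age. They share libraries, so their results are not independent. Of the 10 genes, 9 passed the filter on low counts and were among the 13429 genes tested by the quasi-likelihood method of edgeR. A gene passed where its Benjamini-Hochberg adjusted p over all tested genes was below 0.05. Hsd17b6, Cyp17a1 and Srd5a2 passed the filter only through P36 libraries and Cyp11a1 only through P6 libraries, so the numbers of members that passed between ages carry no weight as evidence about the set. Log2 fold changes are given with the standard error (SE), as jejunum minus ileum or as P36 minus P6.

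With age, 6 of the 9 tested members rose in the jejunum, where 24.7% of all tested genes rose, and 1 fell, where 26.9% fell. In the ileum 6 rose, against 25.5% of all tested genes, and 1 fell, against 30.1%. In both regions the members that rose were Nr3c1, Hsd11b2, Hsd17b6, Cyp17a1, Srd5a2 and Fkbp5, the member that fell was Cyp11a1, and Tsc22d3 and Sgk1 did not pass. Markers of other cells differed between the ages as well. The goblet cell markers summed to 1754 to 4189 CPM at P6 and 11530 to 23793 CPM at P36, the Paneth cell markers to 29.0 to 814 CPM and 4417 to 15138 CPM, and a list of 10 general, B cell and myeloid leukocyte markers to 181 to 513 CPM and 26.0 to 90.8 CPM. Their part in the changes with age was not tested. With the study's added minimum of an absolute log2 fold change above 2, 6 members passed in each region, against 16.4% of tested genes for the jejunum and 16.4% for the ileum. Between the regions at P6, 1 member was higher in the jejunum (11.1% of all tested genes were) and 2 were higher in the ileum (14.8%), and 1 met the fold minimum (6.50%). Between the regions at P36, 2 were higher in the jejunum (8.30%) and 2 were higher in the ileum (7.80%), and 2 met the fold minimum (3.60%).

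**Figure D1:**
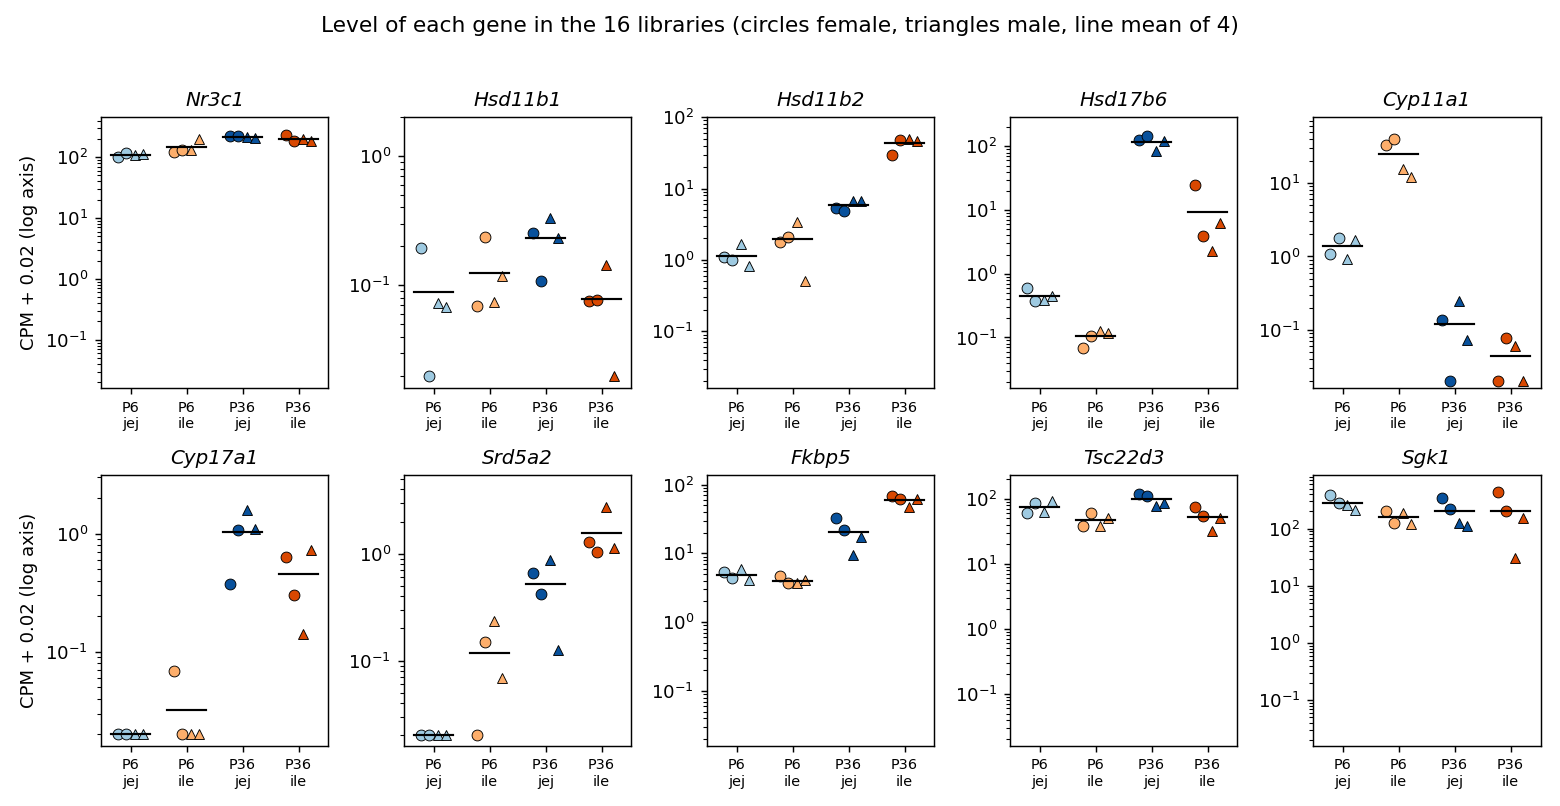
CPM plus 0.02 on a log axis for each of the 10 genes in the 16 libraries, with 1 point per library (circles female, triangles male) and a line at the mean of the 4 libraries of a group. Hsd11b2 and Fkbp5 were highest in the P36 ileum (means of 43.2 and 60.0 CPM), Hsd17b6 in the P36 jejunum (118 CPM) and Cyp11a1 in the P6 ileum (25.0 CPM).

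**Figure D2:**
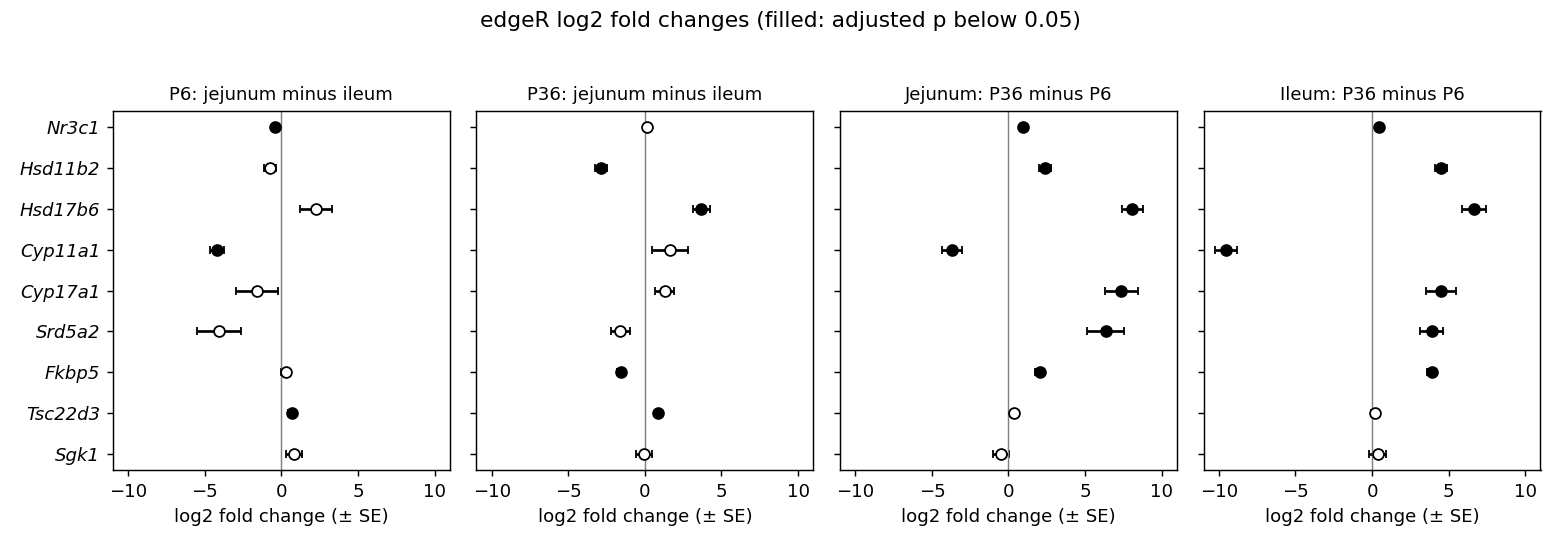
Log2 fold changes from edgeR with their SE for the 9 tested genes in the 4 comparisons, with filled points where the adjusted p was below 0.05. Between ages the points of Cyp11a1 lie to the left of 0 and those of Hsd11b2, Hsd17b6, Cyp17a1, Srd5a2 and Fkbp5 to the right in both regions.

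Nr3c1, the glucocorticoid receptor itself (mm10 chr18:39410545-39487245, minus strand), was among the more abundant members in every group. In the P6 jejunum its level was 101, 117, 109 and 113 CPM in replicates 1 to 4. In the P6 ileum it was 122, 134, 129 and 200 CPM. The P36 jejunum had 224, 220, 213 and 206 CPM, and the P36 ileum had 227, 187, 196 and 186 CPM. Every P36 jejunum library lay above every P6 jejunum library, and the rise was 0.97 on the log2 scale (SE 0.15, adjusted p = 3.99e-05). In the ileum P6 replicate 4 lay within the P36 range, and the rise was 0.44 (SE 0.14, adjusted p = 0.0161), with an adjusted p of 0.0895 when only the 8 ileum libraries were fitted. At P6 the jejunum and ileum did not overlap and the jejunum was lower, at -0.41 (SE 0.14, adjusted p = 0.0481). That call was lost in 9 of 18 alternatives, among them the fits without any 1 of the P6 jejunum libraries. The value was -0.38 with an adjusted p of 0.0554 when the mouse was fitted as a replicate block, and -0.22 (adjusted p = 0.0801) without P6 ileum replicate 4. At P36 the regions overlapped, and the log2 difference was 0.12 (adjusted p = 0.657). The difference between the regional values at P6 and P36 did not pass at -0.53 (adjusted p = 0.131), and passed with library totals as the scaling, at -0.68 (adjusted p = 0.0371). On the RPKM scale, the receptor's mean level was 17.4 (n = 4, range 15.9 to 18.5) in the P6 jejunum and 34.1 (n = 4, range 32.5 to 35.4) in the P36 jejunum.

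Of the 9 genes on a list of steroid receptors and plasma carriers, 5 were tested, Nr3c1 among them. Of the other 4, 1 rose and 1 fell with age in the jejunum, and 1 rose and 2 fell in the ileum. The background for this and the other lists is the share of all tested genes that passed in the same comparison and direction, given above. Nr3c2, the mineralocorticoid receptor, which also binds glucocorticoids and is the receptor that Hsd11b2 shields, rose with age by 1.49 (SE 0.22, adjusted p = 3.82e-05) in the jejunum and by 1.81 (SE 0.23, adjusted p = 5.56e-06) in the ileum. Its mean level went from 17.3 ± 4.61 to 48.8 ± 4.70 CPM in the jejunum (SD, n = 4) and from 13.7 ± 3.82 to 48.1 ± 7.75 CPM in the ileum. Pgr, the progesterone receptor, was lower at P36 in both regions, and its log2 value fell by 5.19 in the jejunum (SE 1.21, adjusted p = 0.00292) and fell by 3.63 in the ileum (SE 0.62, adjusted p = 0.000275). Pgr lay near the filter on low counts. Of 17 alternatives it was tested in 15 for the ages of the jejunum and in 16 for those of the ileum. Esr1, an estrogen receptor, was also lower at P36 in the ileum, where its log2 value fell by 4.51 (SE 0.88, adjusted p = 0.000436), and between the P6 regions it was higher in the ileum, at -4.25 (SE 0.84, adjusted p = 0.00148).

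Of the 14 tested chaperones that hold the receptor, 1 was higher and 1 lower in the jejunum at P6 (11.1% and 14.8% of all tested genes were), and at most 1 passed at P36 in any fit (8.30% and 7.80%). With age 3 rose and 2 fell in the jejunum (24.7% and 26.9%), and 7 rose and 1 fell in the ileum (25.5% and 30.1%), with medians of 0.23 and 0.36 beside -0.01 and -0.03 for all tested genes. Fkbp4, the Fkbp5 relative that carries the hormone-bound receptor to the nucleus, rose by 1.15 (SE 0.21, adjusted p = 0.000308) in the jejunum and 1.49 (SE 0.22, adjusted p = 2.61e-05) in the ileum. Hspa1a, a heat-inducible chaperone, rose by 3.73 (SE 0.62) and 3.86 (SE 0.61).

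Hsd11b1, which regenerates active corticosterone, was near the limit of detection in every library. Its P6 libraries had 4, 0, 1 and 1 counts in the jejunum and 1, 5, 1 and 2 in the ileum, and its P36 libraries 4, 2, 7 and 4 counts in the jejunum and 1, 1, 3 and 0 in the ileum. It did not pass the filter on low counts. With no filter its log2 fold changes had adjusted p-values between 0.183 and 0.714 in the 4 comparisons, so that a difference was not detectable at this depth. H6pd, which supplies the cofactor for Hsd11b1 in the endoplasmic reticulum, was abundant at P6, and with age its log2 value fell by 3.66 in the jejunum (SE 0.29, adjusted p = 2.96e-08) and fell by 4.26 in the ileum (SE 0.29, adjusted p = 8.05e-09). Its mean level was 349 ± 28.8 and 412 ± 162 CPM (SD, n = 4) in the jejunum and ileum at P6 and 27.6 ± 7.25 and 21.5 ± 0.990 CPM at P36.

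Hsd11b2 (mm10 chr8:105518746-105523988, plus strand), which inactivates corticosterone and thereby keeps it from the mineralocorticoid receptor, went the other way and ended highest in the P36 ileum. Its level was 1.09, 0.981, 1.63 and 0.814 CPM in the P6 jejunum, and 1.78, 2.06, 3.36 and 0.490 CPM in the P6 ileum. In the P36 mice it reached 5.35, 4.85, 6.73 and 6.71 CPM in the jejunum and 29.2, 47.5, 50.01 and 46.3 CPM in the ileum. The P6 groups overlapped, and each P36 group lay apart from the other and from both P6 groups. The rise with age was 2.39 (SE 0.39, adjusted p = 8.77e-05) in the jejunum and 4.49 (SE 0.40, adjusted p = 1.43e-07) in the ileum. The regional log2 fold change was -0.77 (SE 0.40, adjusted p = 0.172) at P6 and -2.87 (SE 0.37, adjusted p = 6.17e-05) at P36. Without P6 ileum replicate 4, its lowest P6 ileum library, the P6 value was -1.08 with an adjusted p of 0.00907.

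The difference between ages in the regional fold change of Hsd11b2 was itself tested as an interaction, taken as the P6 value minus the P36 value. It was 2.10 (SE 0.53, adjusted p = 0.0213). Without P6 jejunum replicate 3 it was 1.89 with an adjusted p of 0.0550, so the call rested on that library. Such an interaction passed for 3 of the 9 tested members, Hsd11b2, Cyp11a1 and Fkbp5, against 8.69% of all tested genes. This number carries no weight about the set, as stated above for the filter. Within each P36 mouse the jejunal level of Hsd11b2 was between 0.102 and 0.183 of the ileal level. Set against the receptor per length, the RPKM of Hsd11b2 was 0.0353 ± 0.0117 of that of Nr3c1 in the jejunum at P6 (mean ± SD, n = 4) and 0.0501 ± 0.0331 in the ileum. At P36 it was 0.0943 ± 0.0182 in the jejunum and 0.760 ± 0.214 in the ileum.

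**Figure D3:**
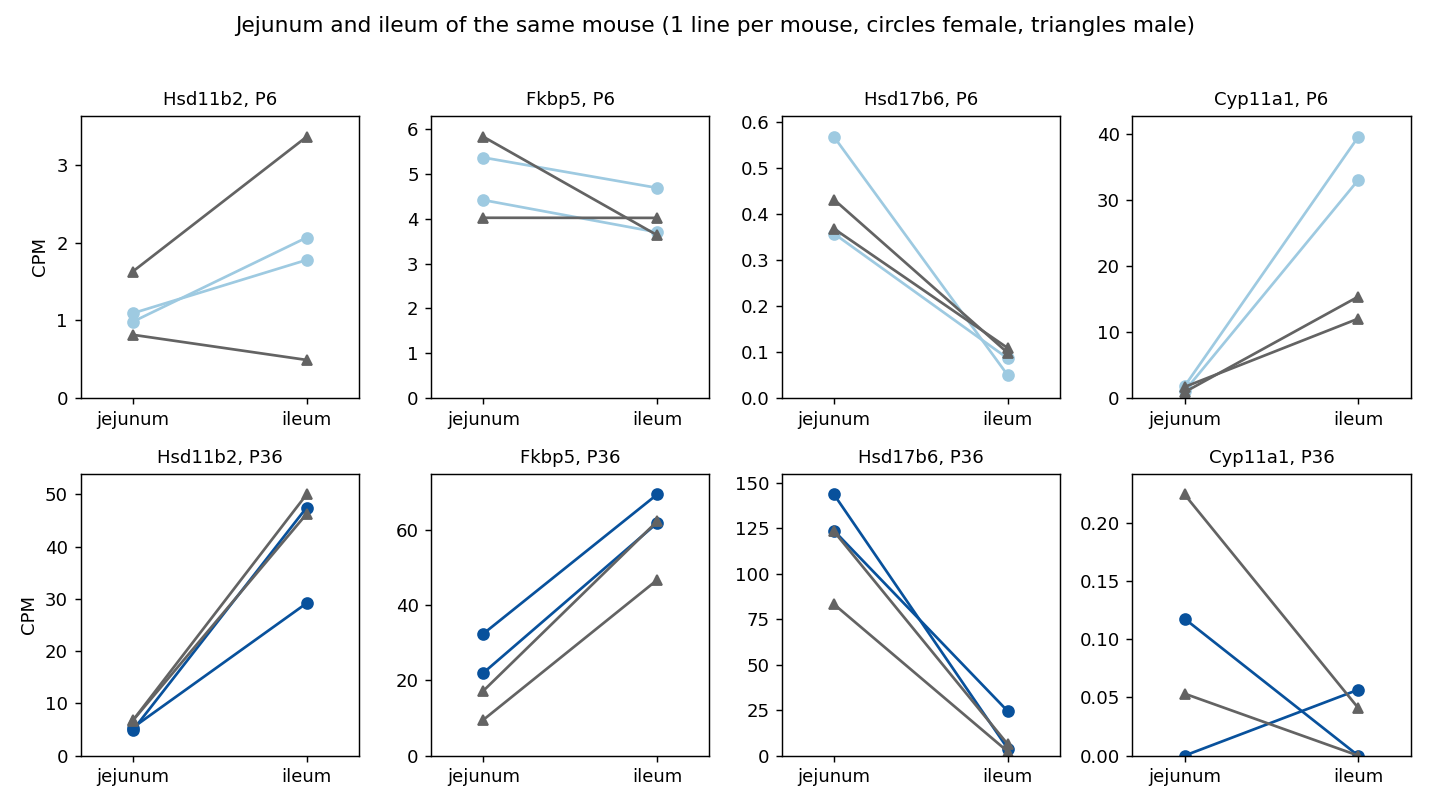
CPM of Hsd11b2, Fkbp5, Hsd17b6 and Cyp11a1 in the jejunum and ileum of each mouse, joined by a line (circles female, triangles male), with P6 in the upper row and P36 in the lower, each panel on its own linear axis from 0. All 4 lines of Hsd11b2 and Fkbp5 rise from jejunum to ileum at P36, all 4 lines of Hsd17b6 fall at both ages, and those of Cyp11a1 rise at P6.

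Cyp11a1 (mm10 chr9:58015017-58027023, plus strand) cleaves the side chain of cholesterol, which is the first step of all steroid synthesis. It was the 1 member that fell with age, and it was highest in the P6 ileum. At P6 it had 33.1, 39.6, 15.4 and 12.1 CPM in the ileum and 1.05, 1.78, 0.892 and 1.68 CPM in the jejunum. At P36 the jejunum had 0.118, 0, 0.224 and 0.0533 CPM and the ileum 0, 0.0567, 0.0408 and 0 CPM. The P6 ileum stood clear of every other group, and within it both female libraries were above both male libraries, a difference between sexes that 2 mice of each could not test. The regional log2 fold change at P6 was -4.21 (SE 0.46, adjusted p = 7.63e-06), and all 18 alternatives kept it past the threshold. In the ileum 2123 counts at P6 stood against 2 at P36, a ratio of 939 with a 95% counting interval from 260 to 7758 that covers counting error only. The edgeR log2 fold change there was -9.55 (SE 0.71, adjusted p = 1.92e-08). In the jejunum it was -3.69 (SE 0.63, adjusted p = 0.000138). The P6 regional value minus the P36 value was -5.86 (SE 1.28, adjusted p = 0.00885). Without P36 jejunum replicate 3, which holds most of the 8 counts of its group, it was -5.02 with an adjusted p of 0.0904.

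Markers of cells that also make steroids were set beside Cyp11a1. Of the 5 adrenal cortex markers, Cyp11b1, Cyp11b2 and Mc2r had 0 counts in all 16 libraries and Cyp21a1 had 1 count, which left Star, the protein that carries cholesterol into the mitochondrion. The mean level of Star at P6 was 3.35 ± 1.44 CPM in the ileum and 1.45 ± 0.256 CPM in the jejunum (SD, n = 4), and at P36 it was 1.05 ± 0.680 CPM and 2.34 ± 0.585 CPM. The 10 mast cell markers summed at P6 to 17.1 to 21.5 CPM in the ileum and 8.71 to 10.5 CPM in the jejunum, and at P36 to 19.6 to 36.2 CPM and 9.84 to 16.0 CPM. Of these, Tpsab1 was at 0 in every library, and 3 were tested. Kit was higher in the ileum, at -1.82 (SE 0.21, adjusted p = 1.58e-05 in edgeR) at P6 and -1.57 (SE 0.21, adjusted p = 8.58e-05) at P36. Mcpt1 and Mcpt2 did not pass, at -0.07 and -0.44 at P6 and 1.38 and 1.01 at P36. The tuft cell markers summed at P6 to 1.43 to 3.74 CPM in the ileum and 0.758 to 1.05 CPM in the jejunum, and at P36 to 10.5 to 18.3 CPM and 17.03 to 22.3 CPM. Of the 5 tested tuft cell markers, only Dclk1 passed between the P6 regions, at -3.72 (SE 0.64, adjusted p = 0.000513 in edgeR). The part of such cells in the Cyp11a1 result was not tested. Without the P6 ileum library with the high stromal sum, the regional value of Cyp11a1 at P6 was -3.89 (adjusted p = 2.61e-05).

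Of 28 genes listed for steroid synthesis from cholesterol, 15 were tested, 13 without Cyp11a1 and Cyp17a1. Of these 13, 4 rose and 4 fell with age in the jejunum, where 24.7% of all tested genes rose and 26.9% fell, and 2 rose and 3 fell in the ileum (25.5% and 30.1%), with medians of 0.36 and 0.15. Nr5a2, the nuclear receptor that drives Cyp11a1 in the intestine, was higher in the ileum at both ages, with regional log2 fold changes of -1.02 (SE 0.18, adjusted p = 0.000511) at P6 and -0.81 (SE 0.18, adjusted p = 0.00468) at P36. Its mean level in the ileum was 60.6 ± 14.9 CPM at P6 and 67.2 ± 11.1 CPM at P36 (SD, n = 4). Stard4, a cytosolic cholesterol carrier, was also higher in the P6 ileum, at -1.95 (SE 0.17, adjusted p = 5.75e-07). Hsd3b3, one of the dehydrogenases that act after Cyp11a1, was lower at P36, and its log2 value fell by 4.98 in the jejunum (SE 0.46, adjusted p = 1.98e-07) and fell by 2.44 in the ileum (SE 0.40, adjusted p = 8.46e-05). The Hsd3b genes are close copies of each other, so the share of reads given to each is uncertain. The last enzymes of corticosterone synthesis, Cyp21a1 and Cyp11b1, were among the genes at 1 and 0 counts in all libraries together.

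Cyp17a1 (mm10 chr19:46667165-46673000, minus strand), the hydroxylase and lyase on the way to androgens, was low throughout and was detected almost entirely at P36. It had 0 counts in all 4 P6 jejunum libraries and 1 count in the P6 ileum, in replicate 1. The P36 jejunum had 0.353, 1.06, 1.57 and 1.07 CPM, and the P36 ileum 0.608, 0.283, 0.122 and 0.712 CPM. In the jejunum 85 counts at P36 stood against 0 at P6, which is at least 29.9-fold higher when the P6 group is set to a floor of 3 counts over the group. In the ileum 28 counts stood against 1, a ratio of 31.7 with a 95% counting interval from 5.23 to 1294. Both rises passed in edgeR (adjusted p = 7.62e-05 and 0.00178), with the limit given above for genes that passed the filter only through P36 libraries. The regions at P36 overlapped, and the regional value was 1.29 (SE 0.61, adjusted p = 0.182).

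Srd5a2 (mm10 chr17:74017706-74047916, minus strand) reduces testosterone to dihydrotestosterone. It too had 0 counts in the P6 jejunum, and its P6 ileum libraries had 0, 3, 4 and 1 counts. At P36 it had 0.647, 0.397, 0.853 and 0.107 CPM in the jejunum and 1.27, 1.02, 2.74 and 1.11 CPM in the ileum. The 41 counts of the P36 jejunum made it at least 14.4-fold higher than the P6 jejunum at the same floor (adjusted p = 0.000732 in edgeR), and in the ileum the rise was 3.91 (SE 0.75, adjusted p = 0.000676). The P36 regions did not overlap, but the regional value of -1.61 (SE 0.62, adjusted p = 0.104) did not pass, and it passed with the mouse as a random replicate block in limma (-1.80, adjusted p = 0.0144). At P6 the value was -4.06 (SE 1.45, adjusted p = 0.0571), on 8 counts against 0, and it passed with DESeq2 (-3.50, adjusted p = 0.0290), with library totals (-4.20, adjusted p = 0.0349) and without P6 ileum replicate 1 (-4.45, adjusted p = 0.0305).

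Hsd17b6 (mm10 chr10:127990936-128007508, minus strand) is a dehydrogenase that oxidises androgen metabolites and also acts on retinoids. It showed the largest fitted rise with age of the tested members in both regions. At P6 it had 0.567, 0.357, 0.367 and 0.431 CPM in the jejunum and 0.0493, 0.0860, 0.108 and 0.0980 CPM in the ileum. At P36 it had 124, 144, 83.2 and 123 CPM in the jejunum and 24.4, 3.85, 2.25 and 6.25 CPM in the ileum. None of the 4 groups overlapped, and P36 ileum replicate 1 stood apart from the other 3 in the direction of the jejunum. The log2 rise with age was 8.08 (SE 0.69, adjusted p = 8.93e-08) in the jejunum and 6.65 (SE 0.80, adjusted p = 3.95e-06) in the ileum, where it was 5.47 without P36 ileum replicate 1. The regional value was 3.69 (SE 0.54, adjusted p = 0.000204) at P36 and 4.87 without that library. The interaction did not pass at -1.42 (SE 1.45, adjusted p = 0.591), and passed without that library at -2.60 (adjusted p = 0.0385). At P6, on 37 counts against 7, it was 2.26 (SE 1.04, adjusted p = 0.122) and did not pass in edgeR, while DESeq2 gave 2.35 with an adjusted p of 0.0147. Within the P36 mice the jejunal level was 5.06, 37.3, 37.1 and 19.7 times the ileal level. The sum of the weaned enterocyte markers moved with it. At P36 the sum was 5688 to 6939 CPM in the jejunum and 823 to 3408 CPM in the ileum, and at P6 it was 316 to 370 CPM and 44.2 to 88.9 CPM. Singly, Sis, Treh, Arg2 and Slc2a2 were higher in the jejunum at P36, and Ada did not pass (1.01, adjusted p = 0.336 in edgeR). At P6 only Slc2a2 was higher in the jejunum (2.93, adjusted p = 0.000272). Sis was higher in the P6 ileum (-1.24, adjusted p = 0.0348), and Ada, Treh and Arg2 did not pass. The part of these markers in the result was not tested.

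Of 21 listed hydroxysteroid dehydrogenases and their retinol dehydrogenase kin, 15 were tested, 13 without Hsd11b2 and Hsd17b6. Of these 13, 4 rose and 6 fell with age in the jejunum (24.7% and 26.9% of all tested genes did) and 4 rose and 5 fell in the ileum (25.5% and 30.1%). Rdh16, a close relative of Hsd17b6, rose by 8.12 (SE 0.83, adjusted p = 6.35e-07) and 6.98 (SE 0.76, adjusted p = 1.38e-06), and this family is another in which near copies may share reads. Hsd17b13, a lipid droplet enzyme, was lower at P36, and its log2 value fell by 3.54 in the jejunum (SE 0.16, adjusted p = 9.39e-11) and fell by 3.87 in the ileum (SE 0.17, adjusted p = 6.52e-11). Hsd17b2, which inactivates estradiol and testosterone, was higher in the ileum at P36, at -0.92 (SE 0.19, adjusted p = 0.00420).

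Among 26 genes for the reduction, hydroxylation and sulfation of steroids, 14 were tested, 13 without Srd5a2. Of these 13, 7 rose and 4 fell with age in each region, with medians of 1.43 in the jejunum and 0.84 in the ileum. Of all tested genes 24.7% rose and 26.9% fell in the jejunum, and 25.5% and 30.1% in the ileum. Srd5a1, the other main reductase of this type beside Srd5a2, rose by 1.67 (SE 0.16, adjusted p = 3.46e-07) in the jejunum and 1.54 (SE 0.16, adjusted p = 9.23e-07) in the ileum. Akr1b7, an aldo-keto reductase, rose by 7.44 (SE 0.66, adjusted p = 1.24e-07) and 7.80 (SE 0.69, adjusted p = 1.36e-07), and Cyp3a11, which hydroxylates steroids and drugs, by 7.94 (SE 0.86, adjusted p = 1.30e-06) in the jejunum.

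**Figure D4:**
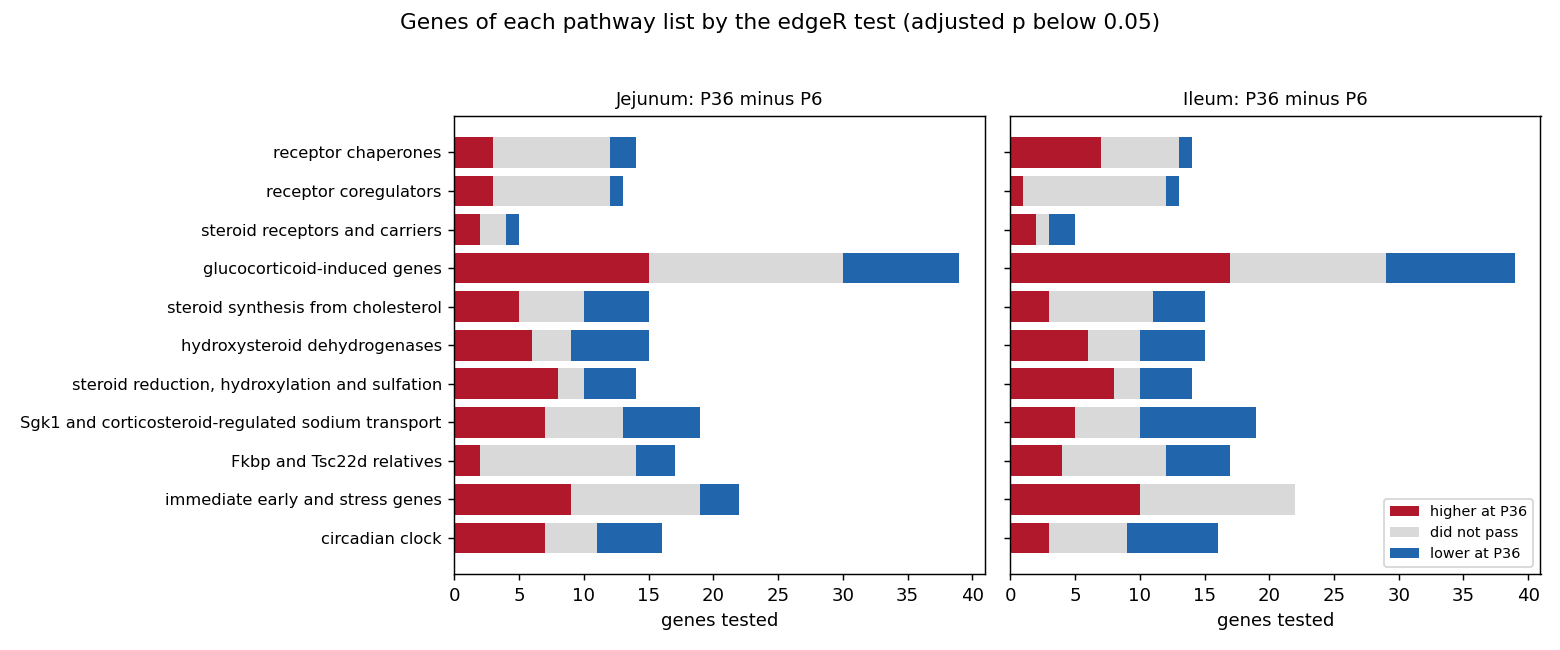
Number of tested genes of each of 11 pathway lists that were higher at P36, lower at P36 or did not pass (adjusted p below 0.05, edgeR), for each region. The glucocorticoid-induced genes include 15 that rose and 9 that fell in the jejunum and 17 that rose and 10 that fell in the ileum. Of all tested genes 24.7% rose and 26.9% fell in the jejunum, and 25.5% and 30.1% in the ileum.

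The last members are genes that the hormone-bound receptor switches on, and the DNA element it binds is shown first because it bears on them. The element is a palindrome of 2 arms with a spacer between them, spelled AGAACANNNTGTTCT. In the RefSeq windows from 250 bases before to 50 bases after each start site (GRCm38.p6, the same build as mm10), 3 of 32851 windows, or 0.00913%, held the full element on these letters, which read the same on both strands outside the spacer. A single arm (AGAACA or its complement TGTTCT) stood in 19.0% of windows. Windows were used for 7 of the 10 genes, 16 in all. The full element stood in 1 of the 6 windows of Sgk1, with its first base at -189 from that start, while the single window of Fkbp5 held neither, and 1 of 3 windows of Tsc22d3 held a single arm with its first base at -185. A match is only a description of these letters, and windows of this size and exact letters cannot show that a gene lacks the element. The 250 bases before the start are printed for Sgk1 (chr10:21993640-21993889, plus strand) and Tsc22d3 (chrX:140600523-140600772, minus strand), read along the strand of the gene, with the element or the single arm in capitals. The Sgk1 window also holds 1 further single arm, upstream of the element, which is left in lower case. Of the other Sgk1 windows, 2 held a single arm.
Sgk1: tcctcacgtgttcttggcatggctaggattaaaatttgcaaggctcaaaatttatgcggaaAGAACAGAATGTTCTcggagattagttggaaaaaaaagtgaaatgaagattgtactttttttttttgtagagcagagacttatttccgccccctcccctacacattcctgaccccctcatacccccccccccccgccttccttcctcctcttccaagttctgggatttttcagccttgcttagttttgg
Tsc22d3: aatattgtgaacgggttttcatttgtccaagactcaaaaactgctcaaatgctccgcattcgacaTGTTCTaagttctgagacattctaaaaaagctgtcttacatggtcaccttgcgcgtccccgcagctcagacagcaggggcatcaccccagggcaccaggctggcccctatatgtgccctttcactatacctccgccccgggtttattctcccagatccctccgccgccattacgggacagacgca

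Fkbp5 (mm10 chr17:28398753-28486149, minus strand) encodes a co-chaperone that lowers the receptor's affinity for hormone and is a standard readout of glucocorticoid exposure. Its level was 5.36, 4.42, 5.83 and 4.02 CPM in the P6 jejunum and 4.69, 3.70, 3.63 and 4.02 CPM in the P6 ileum. At P36 it reached 32.4, 22.0, 9.51 and 17.2 CPM in the jejunum and 69.3, 61.7, 46.6 and 62.2 CPM in the ileum. All P36 libraries lay above all P6 libraries, the P6 regions overlapped, and the P36 regions did not. The rise with age was 2.04 (SE 0.28, adjusted p = 1.64e-05) in the jejunum and 3.90 (SE 0.30, adjusted p = 2.87e-08) in the ileum. The regional value was 0.29 (SE 0.28, adjusted p = 0.480) at P6 and -1.57 (SE 0.27, adjusted p = 0.000840) at P36, and the interaction between them was 1.86 (SE 0.39, adjusted p = 0.00679), which stayed past the threshold in all 25 alternatives. In each P36 mouse the jejunal level was between 0.204 and 0.467 of the ileal level. In the P36 jejunum both female libraries lay above both male libraries, which 2 mice of each sex could not test. The T cell marker sum was high in replicates 1 and 3, which had the highest and the lowest Fkbp5 of that group.

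Tsc22d3 (mm10 chrX:140539529-140600522, minus strand), also called glucocorticoid-induced leucine zipper, differed by region and not detectably by age. Its level was 60.6, 86.1, 61.5 and 91.7 CPM in the P6 jejunum, and 38.6, 59.4, 37.4 and 51.0 CPM in the P6 ileum. At P36 it was 116, 109, 77.6 and 85.3 CPM in the jejunum and 75.6, 53.3, 31.5 and 51.2 CPM in the ileum. In both P36 regions the female libraries lay above the male libraries, which 2 mice of each sex could not test. The jejunum lay above the ileum without overlap at both ages, and within each of the 8 mice. At P6 replicates 1 and 3 were the lower pair and replicates 2 and 4 the higher pair in both regions. Nr3c1 split into the same pairs in the same direction in both P6 regions. The P6 ileum of Sgk1 and the P6 jejunum of Hsd11b2, Fkbp5 and Cyp11a1 split so as well. There replicates 1 and 3 were the higher pair except for Cyp11a1. The names of the P6 mice share a beginning within each of these pairs, and what it stands for is not given in the sources used here. The Paneth cell markers split the same libraries, with sums of 473 to 814 CPM in replicates 1 and 3 and 29.0 to 87.5 CPM in replicates 2 and 4, and the part of this split in the Tsc22d3 values was not tested. The jejunal level was 1.57 and 1.65 times the ileal level in mice 1 and 3 of P6, and 1.45 and 1.80 times in mice 2 and 4. The regional log2 fold change was 0.68 (SE 0.24, adjusted p = 0.0483) at P6, and 0.88 (SE 0.24, adjusted p = 0.0212) at P36. The P6 call was lost in 6 of 18 alternatives, among them the fits without P6 ileum replicate 1 or 3 or P6 jejunum replicate 2 or 4 (0.58 to 0.62). The P36 call was lost in 4 of 18, those without P36 jejunum replicate 1 or 2 or P36 ileum replicate 3 or 4 (0.69 to 0.86). With library totals as the only scaling the P6 value was 0.40 (adjusted p = 0.163). The change with age was 0.37 (SE 0.24, adjusted p = 0.211) in the jejunum and 0.18 (SE 0.24, adjusted p = 0.549) in the ileum, and the groups overlapped.

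Sgk1 (mm10 chr10:21882184-21999902, plus strand) encodes a kinase that raises sodium uptake through channels and exchangers and responds to several stimuli besides glucocorticoids. Its level was 382, 278, 254 and 211 CPM in the P6 jejunum and 204, 125, 192 and 121 CPM in the P6 ileum. At P36 it was 338, 224, 127 and 113 CPM in the jejunum and 437, 205, 30.3 and 154 CPM in the ileum. The P36 libraries spread widely, most of all in the ileum. In both P36 regions and in the P6 jejunum the female libraries lay above the male libraries, which 2 mice of each sex could not test. No comparison passed: the regional value was 0.81 (SE 0.54, adjusted p = 0.292) at P6, where the groups did not overlap, and -0.04 (SE 0.53, adjusted p = 0.974) at P36, and the change with age was -0.49 (SE 0.53, adjusted p = 0.471) in the jejunum and 0.36 (SE 0.53, adjusted p = 0.586) in the ileum. The smallest adjusted p that any alternative gave between the P6 regions was 0.0512.

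The wider set of genes known to be induced by glucocorticoids did not move one way. Of 42 listed, 39 were tested, the 3 members among them. Apart from the members, 36 were tested. With age 14 rose and 9 fell in the jejunum (24.7% and 26.9% of all tested genes did), with a median of 0.05. In the ileum 16 rose and 10 fell (25.5% and 30.1%), with a median of 0.39. Between the regions, with the members counted, the jejunum had 8 higher and 4 lower at P6 (11.1% and 14.8% of all tested genes were). It had 4 higher and 14 lower with library totals as the only scaling, and 6 to 9 higher and 2 to 7 lower in the other alternatives. At P36 it had 6 higher and 4 lower (8.30% and 7.80% of all tested genes were), with 3 to 8 higher and 3 to 4 lower in the alternatives. The lower genes outnumbered the higher ones without P36 ileum replicate 3 or 4 (3 higher and 4 lower). Arl4d, a small GTPase, rose by 4.51 (SE 0.20, adjusted p = 8.25e-11) in the jejunum and 3.53 (SE 0.19, adjusted p = 6.23e-10) in the ileum, and Pik3r1, a regulatory subunit of PI3 kinase, by 1.72 (SE 0.13) and 1.55 (SE 0.13). Cdkn1c, an imprinted inhibitor of the cell cycle, was lower at P36, and its log2 value fell by 6.65 in the jejunum (SE 0.26, adjusted p = 2.61e-11) and fell by 6.65 in the ileum (SE 0.27, adjusted p = 3.20e-11). Tat, a tyrosine-degrading enzyme that glucocorticoids induce in liver, was higher in the ileum at P36, at -4.37 (SE 0.60, adjusted p = 0.000117). Pck1, a gluconeogenic enzyme, was higher in the jejunum at both ages, by 3.24 (SE 0.50) and 1.99 (SE 0.48), and its P36 groups overlapped. Glul and Anxa1 had smaller adjusted p-values than Pck1 between the P6 regions and were higher in the ileum. Their values were -2.29 (SE 0.25, adjusted p = 8.62e-06 in edgeR) and -4.03 (SE 0.52, adjusted p = 3.67e-05).

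For 8 of the tested members the gene with the most similar pattern of log2 CPM over the 16 libraries is given, as a description in which the points share groups and mice. Pearson's r was 0.985 for Aktip with Nr3c1, 0.988 for Tmem63a with Hsd11b2, 0.995 for Cyp4v3 with Hsd17b6 and 0.977 for Kng1 with Cyp11a1. It was 0.952 for 1700123I01Rik with Cyp17a1 and 0.969 for Myot with Fkbp5. For the 2 members that did not pass between ages, r was 0.932 for Ppm1j with Tsc22d3 and 0.862 for Lmtk2 with Sgk1. Because r takes in the differences between groups, its size cannot be compared between members that changed with age and these 2.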

How the data were processed

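Epithelial RNA of 16 samples was sequenced from stranded mRNA libraries on a NovaSeq. The authors used Trimmomatic 0.38 for trimming and STAR for alignment to mm10 (the paper and the submitters' notes name different versions) and then counted read pairs on exons by gene with featureCounts 1.6.3, on the reverse strand setting. The deposited values are raw counts per gene, of which column 7 was read for each library.

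Counts were filtered with filterByExpr on the 4 groups (13429 of 24421 genes), scaled by TMM and fitted in edgeR 4.0.16 (R 4.3.3) with all 16 libraries, 4 group means and the quasi-likelihood test. Log2 CPM used a prior count of 2. SE is the log2 fold change divided by the square root of F. The members and lists were chosen with earlier results of these data known. Text names all members, up to 4 passing genes per list and comparison by adjusted p, and the closest correlate of each member, which for Srd5a2 is not reported here. Sex-linked genes matched the labels in 16 of 16 libraries, and no replicates were copies.

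The jejunum and ileum with the same number came from the same mouse by the mouse names in the sample titles. Their deviations from the group mean correlated with Pearson's r between 0.158 and 0.390. Mismatched pairs were not computed, so these values do not test the pairing. Alternatives were DESeq2 1.42.0, other scalings and filters, a robust prior, the study's fold minimum, sex as a covariate, fits restricted to 8 libraries, the mouse as a replicate block in edgeR or limma 3.58.1, and leaving out each library. Procedures were tested on simulated counts.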

Additional observations from a re-analysis of the deposited data

Results flagged for a closer look

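In P6 ileum replicate 4, Nr3c1 stood at 199.96 CPM against 122 to 134 CPM in the other 3 libraries, a gap large for the range of the group. In P36 ileum replicate 3, Srd5a2 stood at 2.74 CPM against 1.02 to 1.27 CPM. These were the 2 of 30 sets of 4 libraries with such a gap, and chance alone gives about 1 in 20.

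The regional log2 fold change (jejunum minus ileum) differed between P6 and P36 by the edgeR interaction test for 3 members. The P6 value minus the P36 value was 2.10 for Hsd11b2, -5.86 for Cyp11a1 and 1.86 for Fkbp5. Cyp11a1 was higher in the ileum at P6 and near 0 counts in both regions at P36, while Hsd11b2 and Fkbp5 were higher in the ileum at P36 and did not pass between the P6 regions.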

How the results depend on the processing

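The number of members that passed between the P6 regions was 3 and became 1 with the study's fold minimum, 5 with DESeq2, and 1 to 3 when single libraries were left out, with 1 without P6 jejunum replicate 2 or replicate 4. Between the P36 regions it was 4 and became 2 with the fold minimum, and 3 to 4 when single libraries were left out. Between ages it was 7 in each region and 5 to 7 under the alternatives, and for the interaction 3, with 2 to 4. With the mouse as a fixed replicate block, 2 members passed between the P6 regions, 4 between the P36 regions and 3 in the interaction. The paired fit ended the call of Nr3c1 at P6, and the random replicate block added Srd5a2 at P36. No other call of a member changed with the block.

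Signs turned only where no call stood. The P36 regional value of Nr3c1 was -0.0137 with library totals. That of Sgk1 was 0.0340 with sex as a covariate, 0.30 and 0.33 with the mouse as a fixed or random replicate block, and between -0.42 and 0.63 when single libraries were left out, positive without P36 ileum replicate 1 or P36 jejunum replicates 3 or 4. The ileal change of Sgk1 with age was -0.11 with the random block and between -0.30 (without P36 ileum replicate 1) and 0.73 when single libraries were left out, and that of Tsc22d3 lay between -0.0373 (without the same library) and 0.37. The cause was not tested. Scaling by library totals shifted the median of all genes by -0.29 between the P6 regions and -0.14 between the P36 regions. Depth limited Hsd11b1, Cyp17a1 and Srd5a2, and Cyp11a1 at P36.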

Other observations

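Other lists of the pathway were counted in the same way, beside shares of all tested genes of 24.7% that rose and 26.9% that fell with age in the jejunum and 25.5% and 30.1% in the ileum. Of 19 tested genes of corticosteroid-regulated sodium transport, 7 rose and 6 fell with age in the jejunum and 5 rose and 9 fell in the ileum (medians -0.21 and -0.42). Scnn1a, the alpha subunit of the epithelial sodium channel, was lower at P36 in the jejunum, where its log2 value fell by 3.22 (SE 0.15, adjusted p = 1.05e-10 in edgeR). Its regional value was 1.88 (SE 0.14) at P6 and -0.66 (SE 0.14) at P36. The P6 value minus the P36 value was 2.54 (SE 0.20, adjusted p = 8.13e-07). Sgk3, a kinase related to Sgk1, fell by 2.75 in the jejunum and fell by 3.80 in the ileum, while Atp1b1, a sodium pump subunit, rose by 2.72 and 2.39. Slc9a3, the sodium and proton exchanger of the brush border, was higher in the jejunum by 4.76 (SE 0.52) at P6 and 3.51 (SE 0.49) at P36.

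Of 13 receptor coregulators, 3 rose and 1 fell in the jejunum and 1 rose and 1 fell in the ileum. Among them Ppargc1a rose by 2.20 (SE 0.43, adjusted p = 0.000476) in the jejunum. Of 17 Fkbp and Tsc22d genes, 15 without the members, 1 rose and 3 fell in the jejunum, and 3 rose and 5 fell in the ileum. Tsc22d2 fell by 0.86 and fell by 1.23. Of 22 immediate early and stress genes, 9 rose and 3 fell in the jejunum and 10 rose in the ileum. Of 16 tested clock genes, 7 rose and 5 fell in the jejunum and 3 rose and 7 fell in the ileum. Nr1d1, a clock repressor, rose by 6.42 (SE 0.39) and 4.75 (SE 0.36), and Per2 fell by 2.80 and fell by 3.51. Between the P36 regions Hlf and Dbp, outputs of the clock, were higher in the jejunum by 3.88 (SE 0.55) and 3.11 (SE 0.50). The clock genes and the stress genes differ between the same groups as the glucocorticoid-induced members, and their part in the members' results was not tested.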
